A study of Mus musculus with 12 samples.

Results

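Chromatin accessibility was examined at the loci of 9 genes of the transforming growth factor beta (TGF-β) pathway in mouse embryonic fibroblasts (MEFs) and in MEFs at the start of reprogramming to induced pluripotent stem cells, with and without Zfp266. The genes were the ligands Tgfb1, Tgfb2 and Tgfb3, the receptors Tgfbr1 and Tgfbr2, the receptor-regulated Smads Smad2 and Smad3, and the inhibitors Smad7 and Smurf1. They were chosen by name, with earlier results of these data known. A locus was the gene record of GENCODE M21 (GRCm38) with 20 kb on each side. The 4 deposited peak lists merged into 273256 intervals, and 201 of them overlapped a locus by at least 1 bp: 33 at Tgfb2, 37 at Smad3, 29 at Smurf1, 25 at Tgfbr2, 18 at Smad7, 17 at Tgfbr1, 16 at Smad2, and 13 each at Tgfb1 and Tgfb3. Of the 201, 107 had their midpoint in an intron, 39 lay downstream and 30 upstream. Another 17 lay within 1000 bp of a transcription start of the gene, and 8 in an exon. Assignment was by position, and 16 of the intervals lay over the promoter of a neighbouring gene, such as B9d2 beside Tgfb1, Ift43 beside Tgfb3 or Trrap beside Smurf1.

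The cells were passage P2 MEFs of strain 129 from E12.5 embryos, derived from an engineered ES cell line by morula aggregation, and all groups carried Cas9 and a doxycycline-inducible cassette for OCT4, SOX2, KLF4 and MYC. They were transduced with lentivirus for a non-targeting guide RNA (control, labelled wild type) or a guide RNA against Zfp266 (KO), so KO cells are an edited pool and not a clone. MEF groups stayed in MEF medium, which holds FGF2 and heparin. Reprogramming groups were seeded among wild type MEFs and given ES cell medium, with LIF in place of these, with vitamin C (10 µg/ml) and doxycycline (300 ng/ml) for the final 72 of the 96 hours between transduction and harvest. Each of the 4 groups had 3 Omni-ATAC-seq libraries of 50000 sorted cells, and the reprogramming cells were sorted for the mOrange reporter of the cassette. Effects of medium, seeding and the factors cannot be told apart between the states.

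TGF-β ligands bind a complex of type II and type I receptor kinases (TGFBR2 and TGFBR1), which phosphorylates SMAD2 and SMAD3. These join SMAD4, enter the nucleus and act on target genes together with other factors, AP-1 among them. SMAD7 blocks the type I receptor, and SMURF1 is a ubiquitin ligase that marks pathway proteins for degradation. The pathway maintains the mesenchymal state of fibroblasts, and inhibitors of TGFBR1 are known to ease reprogramming.

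The intervals on which the KO comparison turned are shown first, as 300 bp of the reference plus strand in lower case. Capitals mark matches on either strand to TGACTCA (AP-1), GTCTAGAC (SMAD), GGAATG (TEAD), ATTTGCAT (OCT), GGGTGTGG or GGGCGTGG (KLF) and CCATTGTT or CCTTTGTT (SOX). At Smurf1, the first sequence is the centre of the interval, a stretch inside the KO peaks and outside the control peaks of both cell states. The next 2 are the centres of the control peaks of MEF and of reprogramming, which lay at opposite ends of that interval. The last is the centre of the interval 3′ of Smad3 that was listed in reprogramming.
Smurf1 centre, chr5:144931352-144931651: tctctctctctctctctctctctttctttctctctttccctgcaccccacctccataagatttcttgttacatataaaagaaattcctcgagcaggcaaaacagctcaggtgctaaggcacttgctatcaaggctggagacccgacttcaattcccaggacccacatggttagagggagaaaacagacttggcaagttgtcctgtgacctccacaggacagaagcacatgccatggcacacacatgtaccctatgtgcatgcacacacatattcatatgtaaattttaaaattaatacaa
Smurf1 MEF control peak, chr5:144931814-144932113: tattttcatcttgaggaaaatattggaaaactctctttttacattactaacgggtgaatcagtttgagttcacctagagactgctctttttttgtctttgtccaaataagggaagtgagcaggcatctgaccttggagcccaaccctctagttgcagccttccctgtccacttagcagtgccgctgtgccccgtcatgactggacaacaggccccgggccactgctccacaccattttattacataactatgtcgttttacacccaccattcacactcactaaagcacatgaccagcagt
Smurf1 reprogramming control peak, chr5:144930673-144930972: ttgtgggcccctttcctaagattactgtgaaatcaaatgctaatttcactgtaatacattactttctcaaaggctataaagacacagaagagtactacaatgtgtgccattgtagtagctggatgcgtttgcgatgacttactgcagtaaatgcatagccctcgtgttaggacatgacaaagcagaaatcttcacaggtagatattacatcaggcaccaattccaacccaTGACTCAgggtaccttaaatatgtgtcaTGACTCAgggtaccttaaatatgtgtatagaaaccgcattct
Smad3 3′ interval, chr9:63635198-63635497: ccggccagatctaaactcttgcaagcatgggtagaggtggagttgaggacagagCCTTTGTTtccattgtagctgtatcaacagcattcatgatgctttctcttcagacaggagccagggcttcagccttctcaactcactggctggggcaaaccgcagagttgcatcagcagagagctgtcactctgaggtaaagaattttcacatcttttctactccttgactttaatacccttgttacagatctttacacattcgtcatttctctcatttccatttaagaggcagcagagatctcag
In the Smurf1 sequences, AP-1 strings began at bases 231 and 259 of the window on the reprogramming control peak, and no string was matched in the other 2 windows. The reference soft-masks 65.7% of the central window as repeat, 7% of the MEF control window and 0% of the reprogramming control window. In the Smad3 window 3.67% was masked, a SOX string began at base 55, and 83 bp (chr9:63635305-63635387) were an exon of the neighbouring protein-coding gene Aagab.

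The second group shows intervals with a peak in MEF or in reprogramming control cells alone, or with a higher fold enrichment in reprogramming at 5 of the loci described in the text, as examples of each kind chosen after their values were seen. The first 2 had a MEF peak alone, the next 2 a reprogramming peak alone, and the last 2 a peak in both lists.
Tgfbr2 intron, MEF control list, chr9:116116294-116116593: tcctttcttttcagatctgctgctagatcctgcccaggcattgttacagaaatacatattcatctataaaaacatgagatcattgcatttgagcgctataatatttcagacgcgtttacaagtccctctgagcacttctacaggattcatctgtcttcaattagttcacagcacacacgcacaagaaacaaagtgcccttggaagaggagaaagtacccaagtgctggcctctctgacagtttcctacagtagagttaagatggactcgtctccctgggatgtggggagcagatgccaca
Tgfb2 intron, MEF control list, chr1:186695461-186695760: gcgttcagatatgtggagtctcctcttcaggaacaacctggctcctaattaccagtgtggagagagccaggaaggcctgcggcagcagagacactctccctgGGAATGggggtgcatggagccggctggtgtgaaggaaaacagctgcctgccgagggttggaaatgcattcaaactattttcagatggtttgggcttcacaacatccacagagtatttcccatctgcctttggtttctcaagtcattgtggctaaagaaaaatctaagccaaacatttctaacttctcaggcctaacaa
Tgfb2 intron, reprogramming control list, chr1:186669437-186669736: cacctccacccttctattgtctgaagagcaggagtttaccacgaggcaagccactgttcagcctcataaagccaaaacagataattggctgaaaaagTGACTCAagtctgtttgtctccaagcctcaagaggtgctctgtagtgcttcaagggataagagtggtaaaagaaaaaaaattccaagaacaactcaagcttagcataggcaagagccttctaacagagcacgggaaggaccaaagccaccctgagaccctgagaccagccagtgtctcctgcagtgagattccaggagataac
Smad3 3′ flank, reprogramming control list, chr9:63632358-63632657: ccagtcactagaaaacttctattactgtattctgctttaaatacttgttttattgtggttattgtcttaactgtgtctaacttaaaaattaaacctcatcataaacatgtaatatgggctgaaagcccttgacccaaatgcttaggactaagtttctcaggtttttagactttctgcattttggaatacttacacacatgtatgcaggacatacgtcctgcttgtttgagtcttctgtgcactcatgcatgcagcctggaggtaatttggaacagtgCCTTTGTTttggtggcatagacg
Tgfb3 intron, both control lists, chr12:86060905-86061204: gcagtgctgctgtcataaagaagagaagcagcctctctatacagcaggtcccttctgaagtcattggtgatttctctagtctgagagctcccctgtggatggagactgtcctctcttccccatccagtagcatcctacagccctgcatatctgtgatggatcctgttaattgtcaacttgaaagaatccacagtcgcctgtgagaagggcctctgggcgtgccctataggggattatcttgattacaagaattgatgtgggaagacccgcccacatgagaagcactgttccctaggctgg
Tgfbr1 intron, both control lists, chr4:47399684-47399983: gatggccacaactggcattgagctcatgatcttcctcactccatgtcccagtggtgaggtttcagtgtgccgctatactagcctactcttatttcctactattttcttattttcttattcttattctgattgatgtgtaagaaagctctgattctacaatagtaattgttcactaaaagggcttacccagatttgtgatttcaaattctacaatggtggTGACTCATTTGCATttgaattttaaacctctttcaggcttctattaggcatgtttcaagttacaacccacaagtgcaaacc
The Tgfbr1 window held an AP-1 string at bases 220 to 226 that shared its last base with an OCT string at bases 226 to 233. The Tgfb2 windows held a TEAD string at base 103 (MEF) and an AP-1 string at base 98 (reprogramming). A SOX string began at base 278 of the Smad3 window, and the Tgfbr2 and Tgfb3 windows matched none of the strings.

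Peak lists were deposited as 1 list per group, called on the 3 libraries merged, so fold enrichments over background have no replicate error and are given as a description. Size factors recovered from the count tables summed to 3.53 (control) and 3.67 (KO) over the MEF libraries, and to 2.76 (control) and 2.54 (KO) over the reprogramming libraries. The summed factors were lower in reprogramming, total reads were not analysed here, and the part of depth in peaks called in MEF alone was not tested. All 7 fibroblast markers, Thy1, Pdgfra and Twist1 among them, had a peak over the gene start in both MEF lists, and 6 had one in both reprogramming lists, where the matrix gene Postn had none (fold 1.58 in MEF control). Their start folds summed to 19.6 in MEF control and 15.9 in reprogramming control, with Postn absent from the latter sum. Of 5 pluripotency markers, 2 had a start peak in each list, and Zfp42 had a start fold of 8.75 in reprogramming control and no start peak in MEF control. Esrrb had a start fold of 1.92 in MEF control and no start peak in reprogramming control, and the Sall4 fold was 2.59 and 2.62. All 4 early reprogramming and epithelial markers had start peaks in every list, and their start folds summed to 14.6 in MEF control and 11.7 in reprogramming control, with Cdh1 at 4.65 and 2.78, Epcam at 3.94 and 3.33, Krt8 at 4.04 and 2.55, and Krt18 higher in reprogramming at 2.01 and 3.04. Nanog and Dppa5a had no start peak in any list. Fewer cells in an open state and less opening per cell cannot be told apart in these bulk libraries.

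The start of every one of the 9 genes lay under a peak in all 4 lists. Start folds in MEF control were 2.92 for Tgfb1, 3.46 for Tgfb2 and 2.74 for Tgfb3, the ligands. They were 4.09 for Tgfbr1 and 5.15 for Tgfbr2, 5.71 for Smad2, 3.00 for Smad3, 3.28 for Smad7 and 3.64 for Smurf1. Smad2 and Tgfbr2 thus had the highest start folds in MEFs and Tgfb3 and Tgfb1 the lowest. In reprogramming control, the start fold was lower than in MEF control at 8 of 9 genes, with Tgfbr1 as the exception (5.00). The median log2 ratio of reprogramming to MEF control was -0.21 over the 9 genes (range -0.30 to 0.29), close to the -0.22 over all 74537 intervals shared by the control lists. After division by that overall median the value was 0.00789. KO and control start folds lay close together: the MEF KO fold was 4.74 at Tgfbr2 and 5.83 at Smad2. The reprogramming KO fold at Tgfbr1 was 4.27, the widest departure from its control among the 9 genes in either state.

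**Figure D1:**
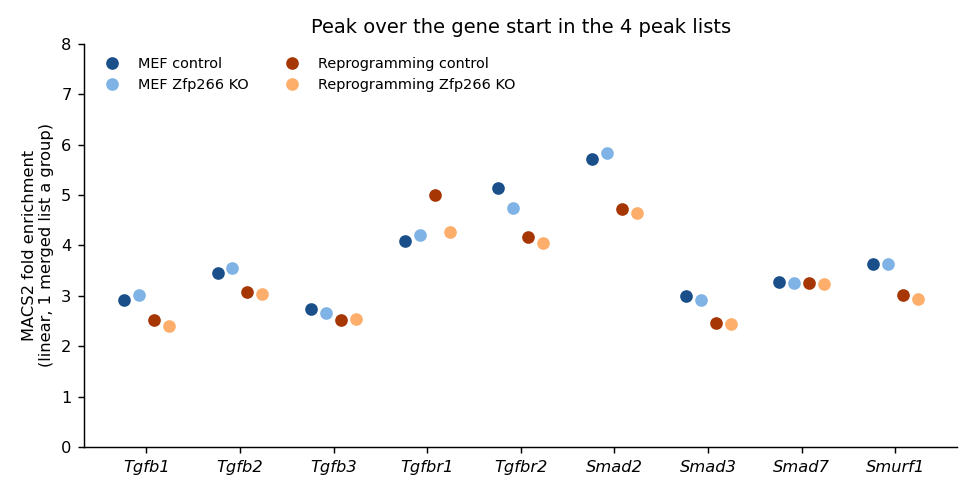
Fold enrichment (linear, from MACS2) of the peak over the start of each gene, with 1 point per merged peak list and therefore no error bars. The reprogramming points lie below the MEF points at most genes, while Tgfbr1 reached 5.00 in reprogramming control against 4.09 in MEF control.

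The next comparison asked which intervals of the loci were accessible in MEFs and at 72 hours of reprogramming in control cells. Of 142 intervals with a MEF control peak, 72 (50.7%) had no reprogramming control peak, beside 54.3 percent of all intervals with a MEF control peak. Of 118 intervals with a reprogramming control peak, 48 (40.7%) had none in MEF control, beside 55.4 percent over all. Among the 70 shared intervals, 12 (17.1%) were at least 1.5 times weaker in reprogramming (24.9 percent over all) and 7 (10%) at least 1.5 times stronger (9.66 percent over all). The share of MEF peaks missing from reprogramming was near the background, and the share of reprogramming peaks missing from MEF lay below it. Neither was tested. By position, 4 of 23 MEF peaks at any annotated promoter (17.4%) were absent from reprogramming, and 68 of 119 elsewhere (57.1%). Over all merged intervals the same shares were 20.7% and 61.2%. Of 14 MEF peaks within 1000 bp of the members' own transcription starts, 1 was absent from reprogramming.

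**Figure D2:**
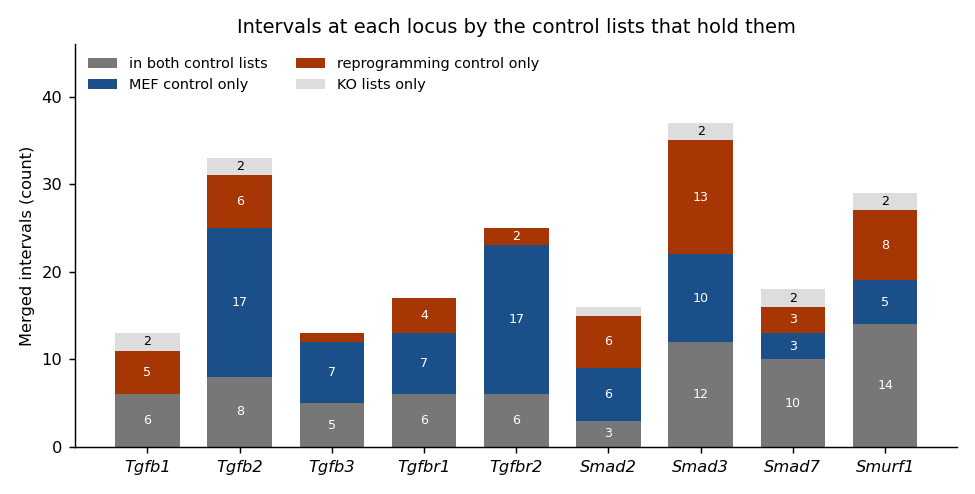
Merged intervals at each locus, stacked by whether a peak was in both control lists, in 1 of them, or in KO lists alone. MEF peaks without a reprogramming peak made up 17 of 25 at Tgfb2 and 17 of 23 at Tgfbr2, and 0 of 6 at Tgfb1. Over all intervals the share was 54.3%.

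At the 3 ligand loci together, 24 of 43 MEF control peaks (55.8%) had no reprogramming control peak, near the 54.3% over all intervals, and 12 of 31 reprogramming control peaks (38.7%) had no MEF control peak, beside 55.4%. Differences between these loci, or from all intervals, were not tested. At Tgfb1, the most widely expressed ligand, all 6 MEF control peaks were also in reprogramming control, and 5 further intervals had a reprogramming peak alone. The strongest of these 5 lay in an intron (chr7:25699956-25701001) with a fold of 3.06 in control and 3.74 in KO. A shared interval at the promoter of Ccdc97 (chr7:25718074-25720448) went from 3.93 in MEF control to 2.45 in reprogramming control. The strongest interval of the Tgfb1 window (fold 6.95 in MEF control and 5.16 in reprogramming control) was the promoter of B9d2, a gene of the ciliary transition zone, and not of Tgfb1.

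At Tgfb2, 17 of 25 MEF control peaks (68.0%, beside 54.3% over all) had no reprogramming counterpart, and 6 of 14 reprogramming peaks (42.9%, beside 55.4%) had no MEF counterpart. Within introns, an interval 10.4 kb from the start (chr1:186695155-186696066, sequence above) had a fold of 4.31 in MEF control and 3.86 in MEF KO and no peak in either reprogramming list. An interval 36.4 kb from the start (chr1:186669296-186669878) showed the opposite, with folds of 5.18 in reprogramming control and 4.95 in reprogramming KO and no MEF peak. Farther along, 95.9 kb from the start and past the gene's end, the strongest interval of the locus was alike in all lists (5.72 and 5.99 in MEF, 5.53 and 5.61 in reprogramming, control before KO). The Tgfb2 gene body therefore held peaks of either state as well as shared ones.

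At Tgfb3, 7 of 12 MEF control peaks (58.3%, near the 54.3% over all) were absent from reprogramming control and 1 of 6 reprogramming peaks (16.7%, beside 55.4%) was absent from MEF. An intronic interval of 333 bp (chr12:86060889-86061221), which also lies within the overlapping gene Ttll5, was the strongest of the locus and among the 7 that were stronger in reprogramming. In MEF its fold was 3.10 (control) and 3.26 (KO), and in reprogramming 5.43 (control) and 4.24 (KO). An interval of 4.20 in MEF control at -12.5 kb, in Ift43, had no reprogramming peak.

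Of the loci grouped by role, the receptor genes showed the highest share of MEF peaks missing from reprogramming, 24 of 36 (66.7%) over both genes, beside 54.3% over all intervals, a difference that was not tested. At Tgfbr2, which encodes the ligand-binding type II receptor, 17 of 23 MEF control peaks (73.9%) had no reprogramming control peak. Of 8 reprogramming control peaks there, 2 (25.0%, beside 55.4% over all intervals) were absent from MEF control, also not tested. The strongest interval of the Tgfbr2 locus, 58.9 kb into the gene (chr9:116116009-116116878), had a fold of 6.19 in MEF control (-log10 q of 98.8) and 6.08 in MEF KO, and was in neither reprogramming list. A second intronic interval, 22.0 kb from the start, was in all 4 lists with a fold of 5.26 in MEF control and 3.14 in reprogramming control. In the other direction, an upstream interval (chr9:116190500-116191217) had folds of 3.78 in reprogramming control and 4.29 in reprogramming KO and no MEF peak. The total length under Tgfbr2 peaks was 20559 bp in MEF control and 7359 bp in reprogramming control. That length rose at Tgfb1 (9364 to 15424 bp) and Smad2 (8375 to 9691 bp). It fell at the other loci, as at Smurf1 (21879 to 20658 bp), and was not taken over all intervals.

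At Tgfbr1, the type I receptor kinase, 7 of 13 MEF control peaks (53.8%, near the 54.3% over all intervals) were absent from reprogramming control. Of 10 reprogramming control peaks, 4 (40.0%, beside 55.4%) were absent from MEF control. The intervals with the highest MEF control folds (chr4:47406874-47407817 in an intron and chr4:47345433-47347419 upstream) went from 4.39 to 3.90 and from 4.10 to 3.796 between the control lists. The interval 46.6 kb from the start (chr4:47399148-47400519), whose centre holds the joined AP-1 and OCT strings, had folds of 4.06 in MEF control and 4.40 in MEF KO against 6.86 and 7.59 in reprogramming control and KO. An interval downstream of the gene (chr4:47417344-47420975) went from 3.05 to 5.58 between the control lists. No shared Tgfbr1 interval was 1.5 times weaker in reprogramming. A downstream interval (chr4:47430524-47431027) had a fold of 3.30 in MEF control and no peak in either reprogramming list.

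**Figure D3:**
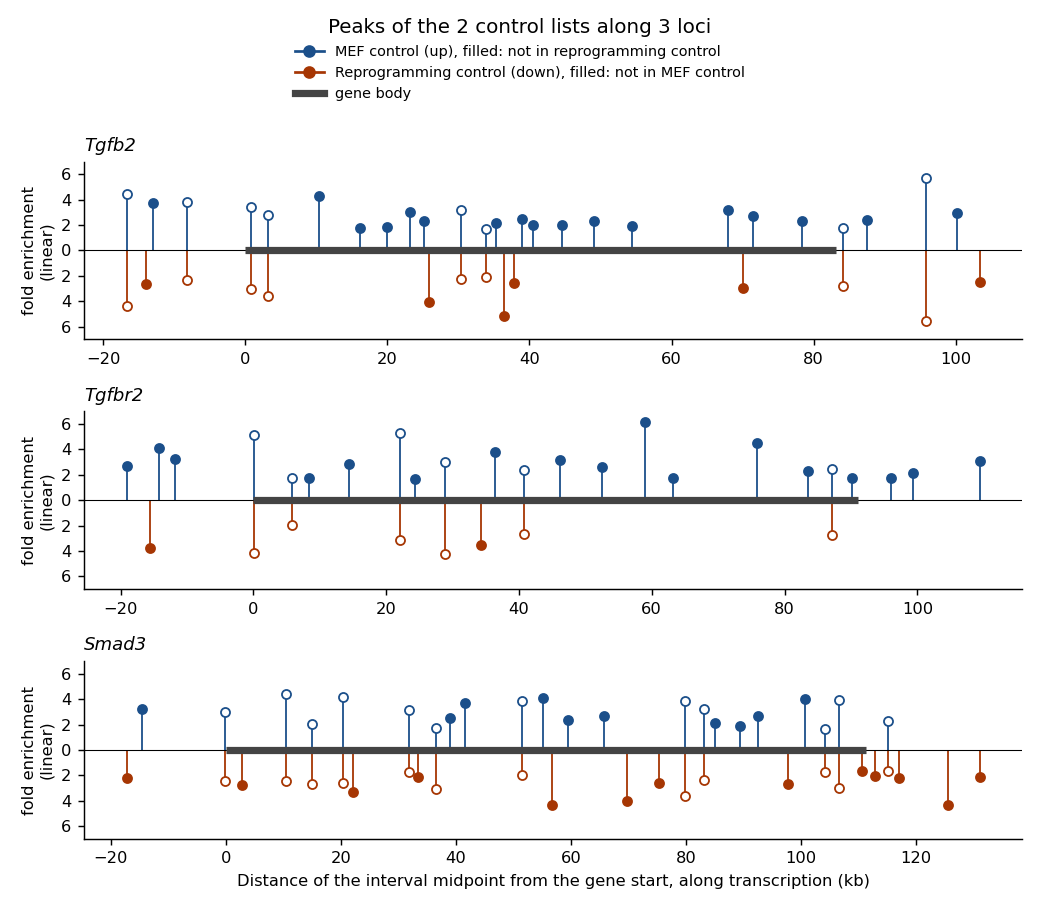
Peaks of MEF control (upward) and reprogramming control (downward) along Tgfb2, Tgfbr2 and Smad3, with linear fold enrichment as height and distance from the gene start along transcription on the horizontal axis. Filled circles have no peak in the other control list: they dominate the MEF side at Tgfb2 and Tgfbr2 and occur on both sides at Smad3.

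At the receptor-regulated Smad loci, 51.6% of MEF control peaks and 55.9% of reprogramming control peaks were in that list alone, near the 54.3% and 55.4% over all intervals. At Smad2, 6 of 9 MEF control peaks and 6 of 9 reprogramming control peaks were in that list alone, leaving 3 shared. The strongest Smad2 interval (chr18:76223293-76224015), 17.9 kb upstream over a processed pseudogene, had a fold of 6.13 in MEF control and 6.0 in MEF KO and no reprogramming peak. In the other direction, an intronic interval (chr18:76280998-76284671) went from 2.10 in MEF control to 3.23 in reprogramming control.

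At Smad3, the effector that binds DNA directly, 10 of 22 MEF control peaks (45.5%, beside 54.3% over all intervals) were absent from reprogramming control. Of 25 reprogramming control peaks, 13 (52.0%, near the 55.4% over all) were absent from MEF control. Neither difference was tested. The intronic interval 10.5 kb from the start (chr9:63745794-63749225) had a fold of 4.43 in MEF control and 2.46 in reprogramming control. The strongest reprogramming peaks without a MEF control peak were an intronic interval (chr9:63700768-63701866) with a fold of 4.30 and an interval 3′ of the gene (chr9:63631188-63633827) with a fold of 4.36. The latter lay in an intron of Aagab and had a MEF KO peak of 2.08.

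At the inhibitor loci, 8 of 32 MEF control peaks (25.0%) had no reprogramming control peak in the same interval, beside 54.3% over all intervals, a difference that was not tested. Of 35 reprogramming control peaks there, 11 (31.4%) had no MEF control peak, beside 55.4% over all intervals, also not tested. At Smad7, itself a target of the pathway, 3 of 13 were absent from reprogramming and 3 of 13 reprogramming peaks from MEF. The strongest Smad7 interval (chr18:75353440-75354397), 13.6 kb upstream, was in all 4 lists with folds of 6.77 and 6.64 in MEF control and KO, and 3.41 and 2.79 in reprogramming control and KO. An intronic Smad7 interval (chr18:75383268-75383886) had a fold of 2.88 in reprogramming control and no MEF peak. At Smurf1, 5 of 19 MEF peaks were absent from reprogramming and 8 of 22 reprogramming peaks from MEF. The strongest Smurf1 interval (chr5:144896533-144899260), over the start of the microRNA gene Mir7039, was in all 4 lists with folds of 5.29 and 5.64 in MEF control and KO, and 3.65 and 3.38 in reprogramming control and KO. An intronic Smurf1 interval (chr5:144904089-144905107) had a fold of 4.25 in MEF control, 1.74 in reprogramming control and no peak in reprogramming KO. Another in an intron (chr5:144954373-144955134) had a fold of 3.79 in reprogramming control and no MEF peak.

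The sequence strings were counted in the central 300 bp of every interval. AP-1 strings were in 11 of 72 member intervals with a MEF peak alone (15.3%) against 23.4% of all such intervals, and in 4 of 48 with a reprogramming peak alone (8.33%) against 9.75% of all. TEAD strings were in 21 of the 72 (29.2%, against 24.3% of all). KLF strings were in 1 of 72 and 3 of 48, and over all intervals in 2.25% and 8.42%. Windows masked as repeat over at least 50% of their length made up 4 of the 48 reprogramming intervals (8.33%) against 22.6% over all. The palindromic SMAD string was in 1 of the 201 windows, at Smad7, and in 0.279% of all intervals. These are counts of letters and not of bound factors.

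The comparison of KO with control asked whether loss of Zfp266, a KRAB zinc finger protein, altered accessibility at these loci. In the peak lists it was small. Of 146 intervals with a peak in either MEF list, 15 were in control alone (10.3%, beside 7.57 percent over all) and 4 in KO alone (2.74%, beside 5.77 percent). Of 130 intervals in either reprogramming list, 17 were in control alone (13.1%, beside 11 percent) and 12 in KO alone (9.23%, beside 7.5 percent). These were weak peaks: 0 of the 15 and 0 of the 4 in MEF reached a -log10 q of 5, and 1 each of the 17 and 12 in reprogramming did. The 15 MEF control peaks had folds of 1.63 to 2.45, with 6 of them at Tgfb2 and 4 at Tgfbr2. Among 127 intervals in both MEF lists and 101 in both reprogramming lists, 0 differed by 1.5 times or more, beside 0.186% and 0.344% over all intervals in both lists, shares too small for 0 to be set apart. KO to control ratios spanned 0.729 to 1.33 for the MEF lists, and 0.780 to 1.48 for the reprogramming lists, with medians of 0.986 and 0.976.

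**Figure D4:**
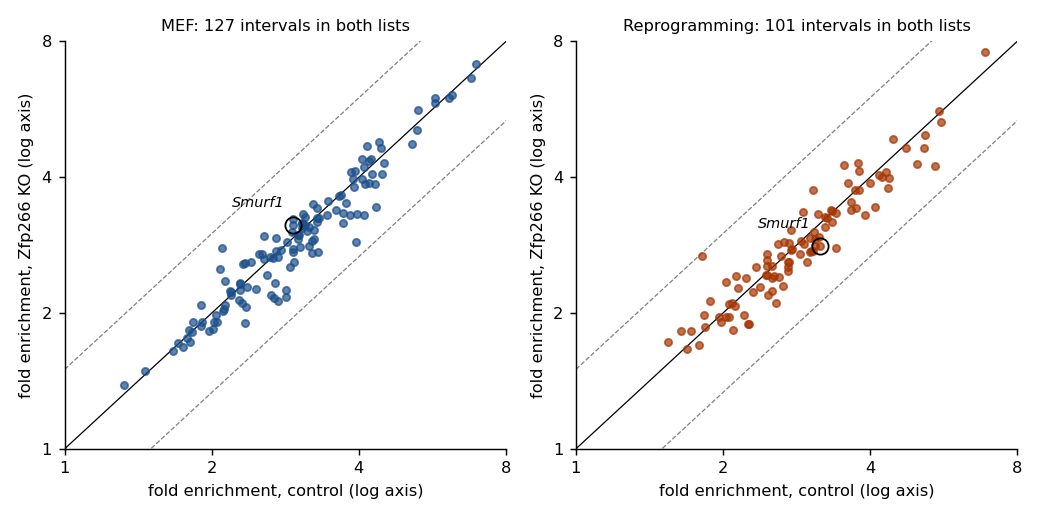
Fold enrichment in Zfp266 KO against control for member intervals with a peak in both lists of a cell state (both axes logarithmic), with the line of equality and dashed lines at ratios of 1.5. All points lie between the dashed lines, and the ringed Smurf1 interval, listed by read counts, lies near equality.

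Read counts per library were deposited for intervals that the authors' test called at a false discovery rate of 0.05. Of the 201 member intervals, 1 was listed as more open in MEF KO (0.175 percent of all merged intervals were), 2 as more open in reprogramming KO (0.557 percent of all) and 0 as more closed in reprogramming KO (0.0315 percent of all). The member counts are too low to be set apart from these shares. Both listed intervals were retested with edgeR's quasi-likelihood test with Benjamini-Hochberg adjustment over 273256 intervals. Because they were listed on the same libraries, the retest is not independent evidence.

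The Smurf1 interval (Interval_206822, chr5:144930592-144932412, 1821 bp) lay in an intron 34.3 kb from the gene start and was listed in both states. In MEFs its normalised read counts were 92.7, 91.6 and 71.7 in control and 204.9, 193.4 and 205.0 in KO. All 3 KO libraries were above all 3 control libraries. The mean rose from 85.4 ± 11.8 (SD, n = 3) to 201 ± 6.68, a log2 fold change of 1.22 ± 0.11 (SE, edgeR adjusted p = 4.94e-22).

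In reprogramming the same Smurf1 interval had normalised counts of 140.8, 113.4 and 105.7 in control and 190.3, 159.9 and 193.7 in KO. The groups again did not overlap, although the control libraries were all higher than in MEFs. The mean rose from 120 ± 18.4 to 181 ± 18.6 (SD, n = 3), a log2 fold change of 0.59 ± 0.12 (SE, edgeR adjusted p = 0.000152). The difference of the KO effect between the states, as an interaction over 12 libraries, was -0.63 ± 0.15 on the log2 scale (reprogramming minus MEF, edgeR adjusted p = 0.000265 over the 70 intervals listed in both states, of which 25, or 35.7%, passed).

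The width of the peak, rather than its fold, differed at this Smurf1 interval. In MEF control the peak spanned 448 bp (bases 1149 to 1596 of the interval, fold 2.94) and in MEF KO 1649 bp (bases 173 to 1821, fold 3.13). In reprogramming control it spanned 462 bp at the other end (bases 1 to 462, fold 3.15) and in reprogramming KO 1475 bp (bases 34 to 1508, fold 2.82). The 2 control peaks did not overlap, so an interval counted as shared between the control lists held separate peaks in MEF and reprogramming. Of the bases outside the control peak, 28.8% in MEF and 32.5% in reprogramming were masked as repeat, against 10.5% and 0% inside it.

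The second interval (Interval_257584, chr9:63635159-63635537, 379 bp) was assigned to Smad3 by its place within 20 kb of the gene's 3′ end, and overlaps an exon of Aagab, which codes for a cytosolic protein of clathrin adaptor assembly. In reprogramming its normalised counts were 73.7, 74.4 and 79.6 in control and 153.7, 187.0 and 188.9 in KO. All 3 KO libraries were above all 3 control libraries, which lay close together. The mean rose from 75.9 ± 3.22 to 177 ± 19.8 (SD, n = 3), a log2 fold change of 1.20 ± 0.13 (SE, edgeR adjusted p = 8.21e-15). Over the 6 MEF libraries the mean was 9.34, and in the peak lists the interval was found in reprogramming KO alone (fold 2.96). It was not listed in MEF, so its KO effect there was not tested.

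**Figure D5:**
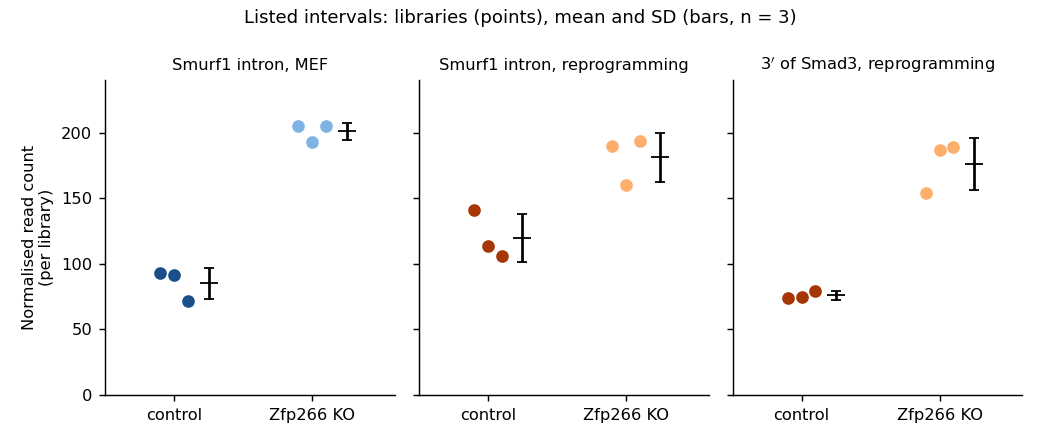
Normalised read counts of each library (points) at the Smurf1 intron interval in MEF and reprogramming and at the interval 3′ of Smad3 in reprogramming, with mean and SD (bars, n = 3) beside them. KO libraries were above control libraries in all 3 panels, and the gap was narrower for Smurf1 in reprogramming (120 to 181) than in MEF (85.4 to 201).

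These calls rest on the size factors. With TMM factors computed over the listed intervals, which are nearly all more open in KO and are centred by it, the log2 fold changes were 0.17 and -0.38 for Smurf1 in MEF and reprogramming and 0.23 for Smad3, and 0 of the 3 passed. With no scaling, Smurf1 passed in MEF (1.27), and Smurf1 and Smad3 in reprogramming did not (0.47 and 1.07, adjusted p of 1 and 0.354).

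A list of 36 other pathway genes held 778 intervals, of which 7 were called in the same fits, all more open in KO. Of these, 4 were in MEF (0.175% of all intervals were listed as more open) and 3 in reprogramming (0.557%), differences that were not tested. The fits called 478 of 480 listed intervals in MEF and 1608 of 1608 in reprogramming, 477 and 1522 of them as more open. A call, or its direction, is thus no result about these genes. With TMM over the listed intervals, none of the 7 passed as more open in KO, the lowest adjusted p of a positive change being 0.0613 (edgeR, Bmpr1b), and Gdf11 passed as more closed (log2 fold change -0.67, adjusted p = 1.67e-18). With no scaling, Bmpr2 (edgeR adjusted p = 0.166), Acvrl1 and Gdf11 (both 1) did not pass, and the other 4 did. In MEF the called intervals were at the type I receptor genes Acvrl1, Acvr1b and Bmpr1b and at Smad4, the common partner of the receptor-regulated Smads. Normalised counts rose from 20.6 ± 3.33 to 79.0 ± 17.2 in an intron of Bmpr1b (SD, n = 3, log2 fold change 1.89 ± 0.19, edgeR adjusted p = 1.75e-18). At Smad4, over no exon but within 1000 bp of an internal transcript start, they rose from 19.9 ± 6.77 to 72.7 ± 14.1 (log2 fold change 1.84 ± 0.20). The counts 3′ of Acvr1b, in Grasp, rose from 24.3 ± 5.12 to 68.7 ± 6.51. The interval 15.4 kb upstream of Acvrl1 rose from 99.2 ± 18.7 to 154 ± 13.8 (log2 fold change 0.65 ± 0.12), a call lost without MEF control replicate 1 (0.48, edgeR adjusted p = 0.182).

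In reprogramming the other called intervals were at Bmpr2, a type II receptor, at the ligand gene Gdf11 and at the target Fn1. Counts rose from 70.0 ± 13.9 to 173 ± 23.8 in Bmpr2 (SD, n = 3, log2 fold change 1.28 ± 0.14). Within 1000 bp of an internal transcript start of Fn1, the fibronectin gene, they rose from 23.7 ± 4.53 to 74.5 ± 7.05 (1.66 ± 0.21). Counts beside Gdf11, within Cd63, rose from 914 ± 14.6 to 1133 ± 105 (0.30 ± 0.06), a call lost without reprogramming KO replicate 3 (0.24, edgeR adjusted p = 0.0596). In control cells 256 of 522 MEF peaks at the 36 genes (49.0%, beside 54.3% over all intervals) had no reprogramming peak, and 198 of 464 reprogramming peaks (42.7%, beside 55.4%) had no MEF peak. Neither difference was tested.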

How the data were processed

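Omni-ATAC-seq libraries (3 in each of 4 groups) were grouped by the sample titles. Per the study's methods and the submitters' processing notes, the authors trimmed reads with cutadapt, aligned them with BWA (GRCm38), discarded PCR duplicates, reads on the mitochondrial genome or in blacklisted regions and pairs in improper orientation, and called peaks with MACS2. Versions of cutadapt and BWA are not given in the sources used here. The deposited broad peak lists, 1 merged list per group, give each peak's fold enrichment (a ratio) and -log10 q-value. The deposited interval tables give raw read counts per library and the authors' normalised signal, which is the count divided by a DESeq2 size factor. These tables hold intervals past the authors' threshold only, so their totals, 33936 to 324141 reads per library, are not the depth. Further deposited columns hold the authors' own comparison (log2 fold change, standard error, statistic, p-values) and were not used, nor were the gapped peak and interval lists.

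Peaks of the 4 lists were merged into 273256 intervals. A locus was the GENCODE M21 gene record and 20 kb on each side, and a promoter interval lay within 1000 bp of an annotated transcript start. For each interval and list the highest fold was taken. Raw counts of all listed intervals of a cell state were fitted with edgeR 4.0.16 in R 4.3.3 (quasi-likelihood, two-sided) with recovered size factors, 0.630 to 1.46, with adjustment over 273256 tests and a threshold of 0.05. The KO by state interaction was fitted over 12 libraries. Normalised counts are given as mean ± SD. The mean over 6 libraries of the other state was obtained from the authors' mean over all 12. Motif strings and soft-masked (repeat) bases came from the GRCm38.p6 reference. Replicate counts differed beyond sampling noise in every pair (lowest ratio of chi-square to its degrees of freedom 1.13), and where nothing shows separate cultures, p-values measure only the spread between libraries. Editing at Zfp266 was not analysed here, and 1 gene of the list of other pathway genes is not reported here.

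The text names, for each gene, the start interval, the strongest interval, up to 2 of the strongest changed intervals per direction, and every listed interval. The genes, lists and tests were chosen with earlier results of these data known. Alternatives (DESeq2 1.42.0, other scalings, filters, windows and thresholds, and leaving out each library) are given at the end.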

Additional observations from a re-analysis of the deposited data

Results flagged for a closer look

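The intronic Smurf1 interval was the only member interval listed in both states, and its KO effect differed between them. The log2 fold change was 1.22 in MEF and 0.59 in reprogramming, and the difference by the edgeR interaction term was -0.63 ± 0.15 (SE, adjusted p = 0.000265 over 70 intervals, 3 libraries in each of 4 groups). All KO libraries were above all control libraries in both states. Control means were 85.4 in MEF and 120 in reprogramming, and KO means were 201 and 181. The interval was listed for its KO effect in each state on the same libraries, and the part of this choice in the difference was not tested.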

How the results depend on the processing

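Calls at the listed intervals depended on scaling. With TMM over the listed intervals, 0 member intervals were called in MEF and 0 in reprogramming, and 3 single log2 fold changes turned negative: Acvrl1 (-0.39), Gdf11 (-0.67) and Smurf1 in reprogramming (-0.38). Nearly all listed intervals were more open in KO, and this scaling centres them. With no scaling, 1 member interval was called in MEF and 0 in reprogramming. Over the gene body alone, 1 was called in reprogramming, and 4 in place of 7 at the other pathway genes. Leaving out each library kept 1 call in MEF, 2 in reprogramming and an interaction of -0.70 to -0.50. The fitted intervals were listed on the same libraries, and the main fits called 478 of 480 in MEF and 1608 of 1608 in reprogramming. Kept calls are therefore not separate evidence. With the replicate block there were 1 and 2 calls and the interaction was -0.65, and no call was changed. Whether replicate numbers pair the samples was not settled. Over the listed intervals, same-numbered deviations correlated at 0.21, 0.14 and 0.04 in MEF and 0.04, 0.10 and 0.08 in reprogramming, all positive and low.

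Counts of peaks without a counterpart in the other control list stayed within 1.5 times under all planned settings. Of shared intervals, 12 were weaker in reprogramming. That count was 7 with peaks of -log10 q of at least 5, 6 with peaks covering at least 50% of the interval, 7 over the gene body alone, 22 with 50 kb on each side, 6 after division by the median ratio and 2 at a ratio of at least 2. The 7 stronger intervals became 3, 2 (coverage), 14 (50 kb), 12 (median ratio) and 0 (ratio of 2). Division by the median ratio also moved the median at gene starts from -0.21 to 0.00789. Intervals with a peak in control or KO alone numbered 19 in MEF and 29 in reprogramming, and 12 and 12 when both lists were first filtered to a -log10 q of at least 5, so that other intervals fell into 1 list. In reprogramming they numbered 19 over the gene body and 45 with 50 kb on each side. The cause of these shifts was not tested beyond the change of peaks or window itself. With 1 merged list per group, a difference between lists has no replicate error, and absence of a peak means only that none was called at that depth.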
